A study of Mus musculus with 2 samples.

Results

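Glutathione, aldehyde and oxidative defence genes were described here in cultured dental epithelial stem cells from Med1 knockout and control mice. Med1 is a subunit of Mediator, the coactivator complex between enhancer-bound factors and RNA polymerase II. The rule took genes by symbol: every glutathione S-transferase, glutathione peroxidase, aldehyde dehydrogenase, peroxiredoxin and thioredoxin reductase in the array's annotation, and a fixed set of single genes for glutathione synthesis, superoxide and peroxide removal and the NRF2 response. This gave 68 of the 16593 genes on the array, read by 105 probes. Gsr, Prdx5 and Prdx6 were not analysed here.

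The knockout (KO) cells came from C57/BL6 mice of genotype Med1 fl/fl with Krt14 driven Cre, in which the keratin 14 promoter directs removal of the floxed gene to the epithelial cells that use it. The control (CON) cells came from Med1 fl/fl littermates of the same strain, so the floxed alleles are common to both genotypes. Labial cervical loops of the lower incisor were dissected at 3 months of age from 3 mice per genotype, and the cells were grown at low density for 7 days, unpassaged, with epidermal and fibroblast growth factors. Each genotype was read on 1 array, so no value has a replicate error, no test between genotypes was possible, and the number of arrays limits the precision.

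These genes form a linked defence. Glutathione is built by glutamate-cysteine ligase and glutathione synthetase, spent by transferases that couple it to electrophiles and by peroxidases that reduce hydroperoxides, while peroxiredoxins and thioredoxin run a parallel thiol circuit. Aldehyde dehydrogenases oxidise aldehydes, those from lipid peroxidation among them, and some members of the family make retinoic acid from retinal. The transcription factor NRF2 (Nfe2l2), held in check by KEAP1, drives many of them through antioxidant response elements, and surface epithelia are known for high levels of several.

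The upstream sequences of neighbouring paralog pairs are shown first, because 1 pair moved together and the other in opposite directions. Promoter windows of 59 of the 68 genes were matched in RefSeq's table for mouse build GRCm38.p6. The 250 bases before the annotated start of the alpha-class transferases Gsta2 and Gsta1 had 190 identical bases in a global alignment, 76.0% of the window. Capitals mark the longest run shared without a mismatch, 29 bases.
Gsta2, chr9:78347146-78347395, minus strand: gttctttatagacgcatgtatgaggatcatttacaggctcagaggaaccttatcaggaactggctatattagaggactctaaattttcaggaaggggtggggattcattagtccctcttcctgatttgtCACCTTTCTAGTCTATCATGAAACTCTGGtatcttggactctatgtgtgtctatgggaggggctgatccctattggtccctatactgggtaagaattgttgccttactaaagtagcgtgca
Gsta1, chr9:78230419-78230668, plus strand: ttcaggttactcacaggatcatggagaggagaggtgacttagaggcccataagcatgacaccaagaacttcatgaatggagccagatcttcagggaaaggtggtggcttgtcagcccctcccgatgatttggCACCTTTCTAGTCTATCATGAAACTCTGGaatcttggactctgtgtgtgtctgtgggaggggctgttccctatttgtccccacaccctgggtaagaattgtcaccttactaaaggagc
The windows of Aldh1a1 and Aldh1a7 had 185 identical bases (74.0%), and the capitals mark a shared run of 65 bases that lay from 94 to 30 bases before both starts. Aldh1a1 has 2 annotated windows, of which the one closer in sequence is printed.
Aldh1a1, chr19:20601718-20601967, plus strand: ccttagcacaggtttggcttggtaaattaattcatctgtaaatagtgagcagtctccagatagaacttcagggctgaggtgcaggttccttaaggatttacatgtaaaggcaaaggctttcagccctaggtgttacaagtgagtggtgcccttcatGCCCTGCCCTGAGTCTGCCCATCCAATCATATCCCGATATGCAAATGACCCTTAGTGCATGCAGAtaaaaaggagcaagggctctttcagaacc
Aldh1a7, chr19:20727557-20727806, minus strand: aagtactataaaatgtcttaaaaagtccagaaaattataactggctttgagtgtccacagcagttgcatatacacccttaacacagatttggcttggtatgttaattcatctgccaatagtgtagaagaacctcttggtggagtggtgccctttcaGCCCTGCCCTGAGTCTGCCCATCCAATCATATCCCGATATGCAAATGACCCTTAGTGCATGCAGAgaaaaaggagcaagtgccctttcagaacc
Over 500 pairs of windows within the transferase, peroxidase and aldehyde dehydrogenase families the median identity by the same alignment was 58.0%, the highest was that of Gstp1 with Gstp2 (83.2%), and the next pair below the printed ones was Gstm1 with Gstm3 (64.8%). Gsta1 and Gsta2 were both higher on the KO array, whereas Aldh1a7 was higher and Aldh1a1 lower, as given below.

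Some measures of the samples bear on all values that follow. Detection covered 42.6% of 25697 probes for KO and 43.1% for CON. Med1 read 412 on the KO array and 914 on the CON array, 2.81-fold lower in KO, and the sources used here do not place its probe inside or outside the deleted part of the gene. The labelled epithelial identity was checked on 9 keratinocyte markers, all of them detected. Krt14 read 36803 on the KO array and 38349 on the CON array. Of the 9, 1 was 2-fold higher in KO (Krt15, log2 difference 2.26), 2 were lower (Krt5 at -1.22 and the integrin Itga6 at -2.09), and 7 lay below 0. The markers of differentiated keratinocytes included the mucosal keratins Krt4 and Krt13. They summed to 118498 on the KO array and 6432 on the CON array, of which Krt13 alone read 37542 and 1522. Of these 11 markers 10 were detected (all but Krt1), each of them at least 2-fold higher in KO. Markers of mesenchymal cells summed to 9524 on the KO array and 3422 on the CON array. Of the 12, 8 were detected, 5 of them on the KO array only, and Col1a2, Pdgfra, Pdgfrb and Postn were not. Of the 8, 7 passed 2-fold upwards. Without background correction 6 did, and likewise with the lowest detected level taken for undetected values. The sums of both marker lists include background and undetected markers, so they do not measure marker RNA alone. The X-inactivation transcript Xist read 3131 on the KO array and 168, below detection, on the CON array. Of immune, endothelial and erythroid markers 1 of 5, 1 of 6 and 1 of 2 were detected. The part of cell mixture or of sex in the differences below was not tested, and in RNA of whole cultures fewer cells of a type and less RNA per cell cannot be told apart.

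Of the 68 genes, 54 were detected on at least 1 array at a detection p-value under 0.01, 52 of them on both. Signals below are mean bead intensities as deposited, and differences are KO minus CON on the log2 scale after background correction and quantile normalization, taken from the brightest probe of each gene. The deposited signals include background, so for dim genes the ratio of the printed signals is smaller than the fold after correction. Genes 2-fold higher on the KO array numbered 8 (14.8% of the detected members), against 8.35% of all 8217 detected genes, and 2 were 2-fold lower (3.70%), against 6.52%. The median difference was 0.23, against -0.06 over all detected genes. On the positive side of 0 were 32 members and on the negative side 22, against 3633 and 4577 of all detected genes. With 1 array per genotype these shares are descriptions of the 2 arrays. The yardstick at hand is technical: probes of one gene, detected on both arrays, disagreed in their difference with a standard deviation of 0.31 over 1830 genes, and of 0.45 over the 11 members with such probes.

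**Figure D1:**
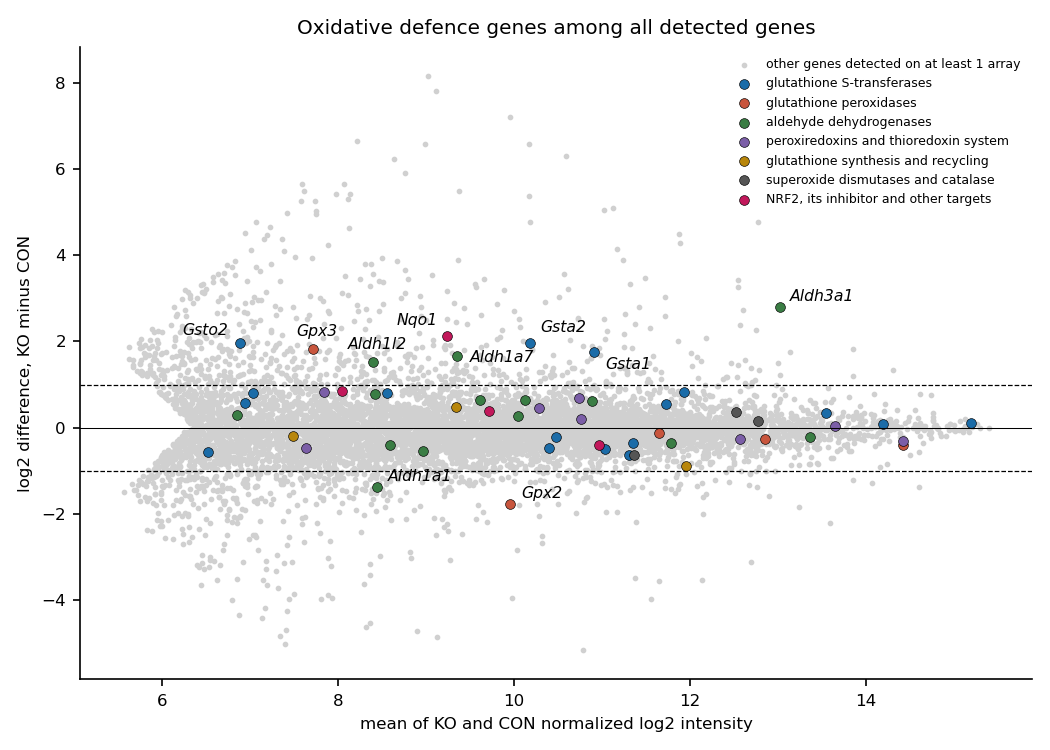
Difference (KO minus CON, log2) against the mean normalized log2 intensity of both arrays for each gene detected on at least 1 array; coloured points are the 54 detected members by class, grey points all other genes, and dashed lines mark 2-fold. The 10 named members lie outside the dashed lines, 8 above and 2 below, and Aldh3a1 is the farthest of them from 0, at 2.80.

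Aldehyde dehydrogenases held both the largest positive difference among the members and a contrast between close relatives. Aldh3a1, which oxidises aromatic and lipid-derived aldehydes in stratified and corneal epithelium, read 22822 on the KO array and 3323 on the CON array. The KO value was 6.97-fold higher (log2 difference 2.80), the 125th largest positive difference of all detected genes. Its neighbour on the chromosome, Aldh3a2, the fatty aldehyde dehydrogenase, read 1528 on the KO array and 1086 on the CON array, a difference of 0.63 that stayed under 2-fold.

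Aldh1a7 and Aldh1a1 differed in opposite directions. Aldh1a1, a cytosolic enzyme that converts retinal to retinoic acid, read 368 on the KO array and 739 on the CON array, 2.61-fold lower in KO (difference -1.38). Aldh1a7, its mouse paralog next to it on the chromosome, read 1298 on the KO array and 539 on the CON array, 3.16-fold higher in KO (1.66). Without background correction the difference of Aldh1a1 was -0.95, no longer 2-fold, while that of Aldh1a7 was 1.33. Each has 1 probe, and a probe of either gene could pick up transcripts of the other. Of the other retinal dehydrogenases, Aldh1a3 read 598 on the KO array and 430 on the CON array (0.77), and Aldh1a2 was not detected on either.

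Aldh1l2, a mitochondrial folate-linked dehydrogenase, read 716 on the KO array and 365 on the CON array, 2.89-fold higher in KO (1.53). Its second probe, detected on the KO array only, differed by 0.91, and without background correction the brightest probe differed by 1.04. The cytosolic counterpart Aldh1l1 was near background, with 284 on the KO array and 263 on the CON array (0.30), and its 2 dimmer detected probes differed by 0.54 and -0.34, so its direction was not settled between probes. Aldh2, the mitochondrial enzyme that clears acetaldehyde, read 10188 on the KO array and 11380 on the CON array (-0.23).

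The rest of the family stayed within 2-fold. In all, 14 of 20 aldehyde dehydrogenases were detected. Of these 3 were 2-fold higher in KO (21.4%) and 1 lower (7.14%), against 8.35% and 6.52% of all detected genes. The other 10 lay between, and the median was 0.46. Above 0 were Aldh5a1 (0.64), which acts on succinic semialdehyde, Aldh18a1 (0.62), a proline synthesis enzyme, and Aldh6a1 (0.27) of valine breakdown. Below 0 were Aldh4a1 (-0.36), of proline breakdown, Aldh16a1 (-0.41) and Aldh3b1 (-0.54). The other detected probes of Aldh3b1 were at 0.01 and -0.87. The 5 undetected members besides Aldh1a2 were Aldh1b1, Aldh3b3, Aldh7a1, Aldh8a1 and Aldh9a1.

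Among glutathione S-transferases, the pair Gsta1 and Gsta2 and the omega-class Gsto2 passed 2-fold, all higher in KO. Gsta2, an alpha-class enzyme that conjugates electrophiles and reduces lipid hydroperoxides, read 2422 on the KO array and 759 on the CON array, 3.93-fold higher in KO (1.97). Gsta1, of the same class, read 3693 on the KO array and 1244 on the CON array, 3.37-fold higher (1.75). The 2 genes are so alike that their single probes may share signal, and the files do not tell how far. Gsta4, which prefers the lipid peroxidation product hydroxynonenal and lies next to Gsta1, read 14176 on the KO array and 10471 on the CON array (0.33). Gsta3, on another chromosome, read 20262 on the KO array and 17568 on the CON array (0.09), with a second probe at 0.46.

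Gsto2, an omega-class enzyme with dehydroascorbate reductase activity, was detected on the KO array only, with 385 against 217 on the CON array. On the background-corrected scale it was at least 2.97-fold higher in KO, taking for the CON array the lowest level of a detected probe there. Bounds of this kind hold on that scale only. Without the correction Gsto2 was 1.80-fold higher (0.85), under 2-fold, and a second probe, also detected on the KO array only, differed by 0.46. Gsto1, next to it on the chromosome, read 38942 on the KO array and 35643 on the CON array (0.10).

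The mu-class cluster lay mostly above 0 without reaching 2-fold. Gstm2 read 5429 on the KO array and 3142 on the CON array (0.82), and its other probes differed by 0.91 and 1.18. Gstm4 (0.81), Gstm6 (0.79) and Gstm5 (0.56), of the same cluster, were on the same side. Gstm1, between Gstm2 and Gstm4, read 2437 on the KO array and 3146 on the CON array (-0.36), with a dim second probe at 0.16. Gstm3 was not detected.

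Most of the remaining transferases were lower or near even. Gstp1, a pi-class enzyme, read 2159 on the KO array and 3341 on the CON array (-0.64), and its second detected probe differed by -0.65. Gstk1 of mitochondria and peroxisomes was at -0.50, and Gstz1, a tyrosine breakdown enzyme, at -0.47. The theta-class genes split, with Gstt3 at -0.21 and Gstt2 at 0.57. Gstt2 was near background, with 304 on the KO array and 259 on the CON array, and differed by 0.25 without background correction. Gstt1, detected on the CON array only, was at least 1.36-fold lower in KO on the background-corrected scale and 1.16-fold lower without the correction. Of 21 transferases 17 were detected. Of these 3 were 2-fold higher in KO (17.6%) and 0 lower, against 8.35% and 6.52% of all detected genes. The other 14 lay between, and the median was 0.33. Gstp2, Gstp3 and Gstt4 were the others not detected.

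**Figure D2:**
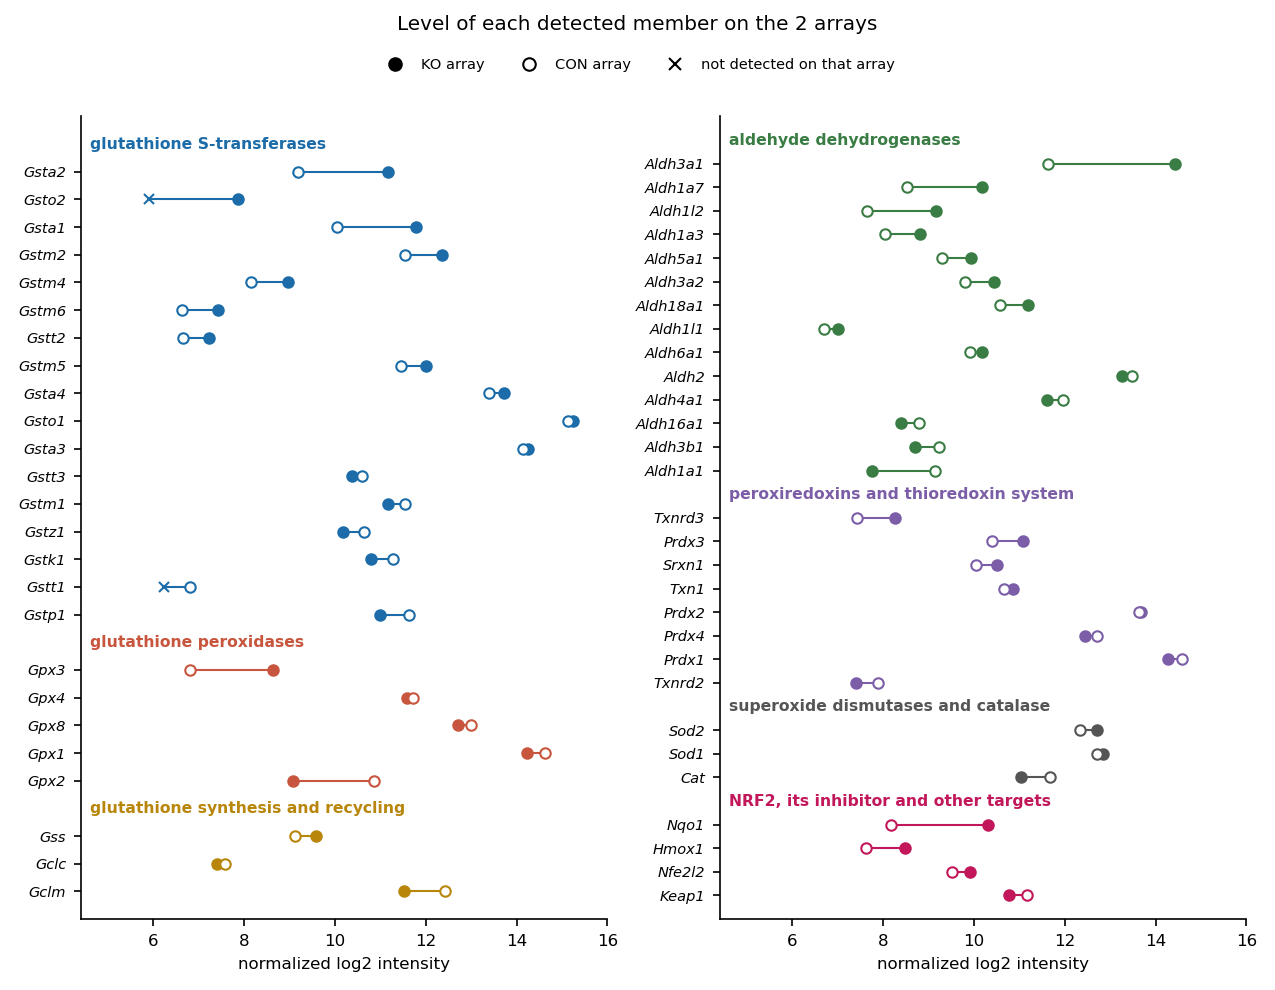
Normalized log2 intensity of the 54 detected members on the KO array (filled) and the CON array (open), grouped by class and ordered by difference within a class; a cross marks a value below detection. The lines are longest for Aldh3a1, Nqo1, Gsta2, Gsto2 and Gpx3, where KO lies to the right, and for Gpx2, where it lies to the left.

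Glutathione peroxidases split by member. Gpx2, the peroxidase of gastrointestinal and other epithelia, read 682 on the KO array and 2041 on the CON array, 3.43-fold lower in KO (-1.78). This was the largest negative difference among the members, and it was -1.52 without background correction. Gpx3, the secreted plasma peroxidase, read 543 on the KO array and 271 on the CON array, 3.56-fold higher in KO (1.83), or 1.04 without background correction. The 3 others detected were all slightly below 0. Gpx1, the ubiquitous cytosolic enzyme, read 20083 on the KO array and 24694 on the CON array (-0.41). Gpx8 of the endoplasmic reticulum was at -0.27, with further probes at -0.09 and -0.08, and Gpx4, which reduces phospholipid hydroperoxides, at -0.14. Gpx5, Gpx6 and Gpx7 were not detected.

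None of 8 detected peroxiredoxin and thioredoxin genes differed by 2-fold at the brightest probe, and their median was 0.11. Prdx1, a cytosolic peroxiredoxin, read 20792 on the KO array and 24139 on the CON array (-0.31). Prdx3 of mitochondria was at 0.69, Prdx4 of the secretory pathway at -0.26 and thioredoxin itself, Txn1, at 0.19. Srxn1, the sulfiredoxin that repairs overoxidised peroxiredoxins, read 1604 on the KO array and 1248 on the CON array (0.47), with its other probes at 0.52 and 0.62. Txnrd3, a thioredoxin reductase, was at 0.84. Mitochondrial Txnrd2 was at -0.48, with a second probe at 0.06. Txnrd1, the cytosolic reductase, was not detected.

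Prdx2 was the member whose probes disagreed most. Its brightest probe read 13677 on the KO array and 12593 on the CON array, a difference of 0.04. A second probe read 822 on the KO array and 291 on the CON array, a difference of 2.39, and another, detected on the KO array only, differed by 1.89. Averaged over its detected probes, Prdx2 would count as 2-fold higher. Which transcript each probe reads is not stated in the files. A dim second probe of Prdx1, detected on the CON array only, differed by -1.52, far from its bright probe.

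**Figure D3:**
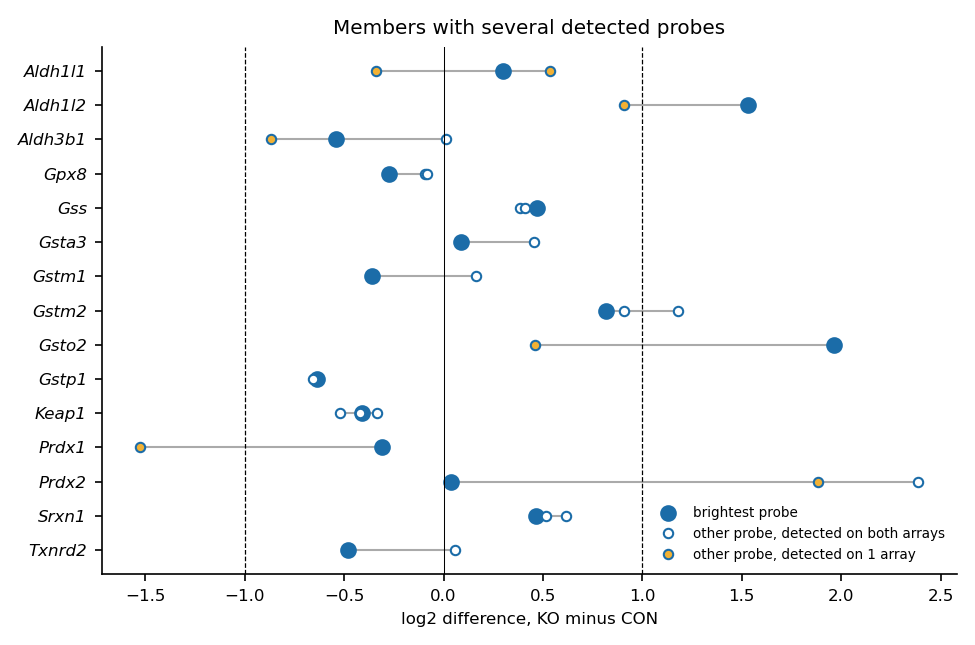
Difference (KO minus CON, log2) of every detected probe for the 15 members with more than 1 detected probe; the large point is the brightest probe, open points are other probes detected on both arrays, orange points are probes detected on 1 array only, and dashed lines mark 2-fold. Gstp1, Keap1, Gss and Srxn1 are tight, while the probes of Prdx2 run between 0.04 and 2.39.

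None of the 3 glutathione synthesis genes differed by 2-fold, and 2 of them lay below 0. Gclm, the modifier subunit of glutamate-cysteine ligase, read 3048 on the KO array and 5579 on the CON array (-0.90, 1.87-fold lower in KO). Gclc, the catalytic subunit, read 323 on the KO array and 356 on the CON array (-0.18), and Gss, the synthetase, was at 0.47, with further probes at 0.41 and 0.39. Superoxide dismutases and catalase likewise stayed within 2-fold. Sod1, the cytosolic dismutase, read 7749 on the KO array and 6726 on the CON array (0.15), and mitochondrial Sod2 was at 0.36. Cat, the peroxisomal catalase, read 2228 on the KO array and 3467 on the CON array (-0.64).

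In the NRF2 group, Nqo1 alone passed 2-fold. Nqo1, the quinone reductase commonly used as an NRF2 readout, read 1399 on the KO array and 456 on the CON array, 4.39-fold higher in KO (2.13). The difference was 1.67 without background correction, and a second Nqo1 probe was not detected on either array. Nfe2l2, which encodes NRF2, read 1094 on the KO array and 915 on the CON array (0.39). Keap1, its inhibitor, read 1875 on the KO array and 2508 on the CON array (-0.41), and all 4 of its probes lay between -0.52 and -0.34. Hmox1, heme oxygenase, was at 0.85. Members widely used as NRF2 targets thus lay on both sides of 0, from Nqo1 at 2.13 and Gsta1 at 1.75 through Srxn1 at 0.47 to Prdx1 at -0.31, Gclm at -0.90 and Gpx2 at -1.78.

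The core of the antioxidant response element, TGACNNNGC, was searched on both strands of each window of 250 bases before and 50 after the start. It was present in 7 of 58 windows of detected members (12.1%), against 4071 of 32851 windows (12.4%) in the whole table. Members at least 2-fold different had 10 matched windows, of 8 genes, and 0 of these held it. Aldh3a1 and Aldh1l2 had no matched window. Beside a share of 12.4%, 10 windows are too few to show whether the core is rarer there. In Srxn1 the core lay after the start. Stretches around the core, in capitals, are printed for the detected members that hold it upstream of the start, to set them beside the differences.
Gclm, chr3:122245407-122245447, plus strand: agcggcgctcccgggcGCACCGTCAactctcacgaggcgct
Prdx1, chr4:116685450-116685490, plus strand: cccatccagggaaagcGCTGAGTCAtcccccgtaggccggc
Sod1, chr16:90220690-90220730, plus strand: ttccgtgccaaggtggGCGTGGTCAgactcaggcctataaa
Gsta3, chr1:21240448-21240488, plus strand: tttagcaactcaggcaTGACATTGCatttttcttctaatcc
Nfe2l2, chr2:75704879-75704913, minus strand: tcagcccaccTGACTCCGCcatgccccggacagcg
Gstm5, chr3:107895796-107895836, plus strand: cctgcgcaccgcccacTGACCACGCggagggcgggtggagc
In Gclm, Prdx1 and Sod1 the core runs on the opposite strand, so its reverse complement is in capitals. The differences of these genes were -0.90 for Gclm, -0.31 for Prdx1, 0.15 for Sod1, 0.09 for Gsta3, 0.39 for Nfe2l2 and 0.56 for Gstm5, none of them 2-fold. A match is a run of letters in a short window, and elements farther away were not searched.

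Neighbours on a chromosome shared a direction in some clusters and not in others. With at most 5 protein-coding genes between successive members in the GRCm38.p6 gene order, 29 members fell into 10 clusters. In the cluster that holds Gclc, Gsta4, Gsta1 and Gsta2 the differences were -0.18, 0.33, 1.75 and 1.97 in chromosomal order. Gsto1 and Gsto2 were at 0.10 and 1.96, Aldh3a1 and Aldh3a2 at 2.80 and 0.63, and Aldh1a1 and Aldh1a7 at -1.38 and 1.66. Aldh1l2 (1.53) shares a cluster with Txnrd1, which was not detected.

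**Figure D4:**
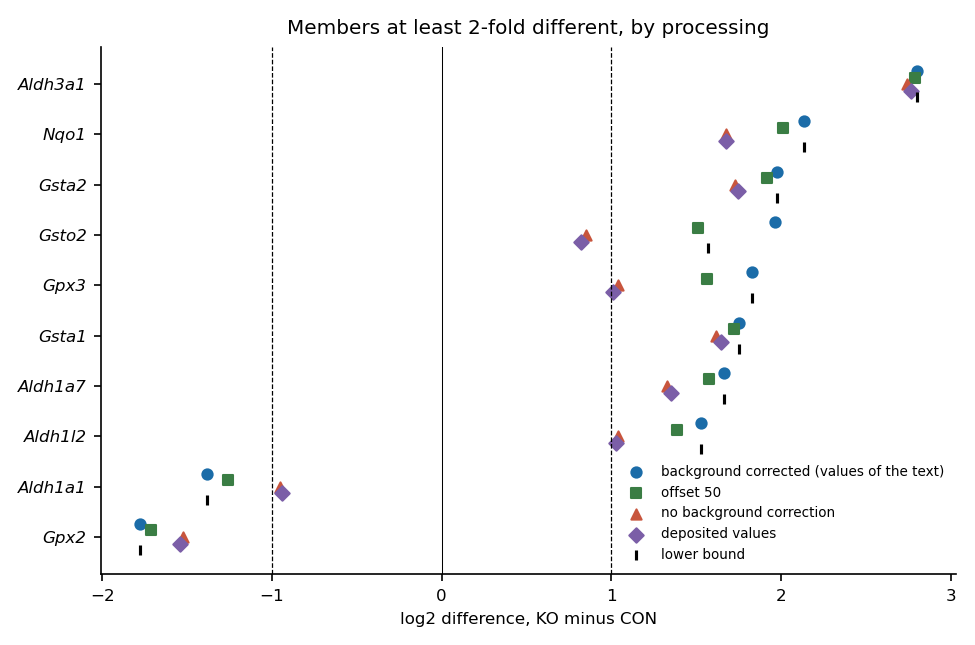
Difference (KO minus CON, log2) of the 10 members at least 2-fold different, under the processing used in the text, with an offset of 50, without background correction, from the deposited normalized values, and as a lower bound; dashed lines mark 2-fold. Aldh3a1, Nqo1, Gsta2, Gsta1, Aldh1a7, Gpx2, Gpx3 and Aldh1l2 stay beyond 2-fold in all 5, while Gsto2 and Aldh1a1 come inside it without background correction and in the deposited values.

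Outside the chosen symbols, 8 lists of related genes were described in the same way. Together they held 117 measured genes, of which 85 were detected. Of these, 15 passed 2-fold upwards and 4 downwards, and the median was 0.15. The percentages to set beside these, and beside the 2-fold counts of each list below, are again 8.35% and 6.52% of all detected genes. Among the 85 detected list genes, 8 were detected on the KO array only and 4 on the CON array only. As lower bounds the list counts were 13 and 2, against 6.86% and 4.98% of all detected genes. Without background correction the list counts were 9 and 1, and the shares of all detected genes 4.15% and 2.51%.

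For other glutathione conjugation genes, 1 of 10 detected was 2-fold higher and 0 lower (median -0.32). Esd, an esterase that hydrolyses S-formylglutathione, read 4265 on the KO array and 885 on the CON array, 5.76-fold higher in KO. Mgst2, a microsomal transferase, was at -0.999, just short of 2-fold, the exporter Abcc3 at -0.93 and the prostaglandin synthase Ptges at 0.92.

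Genes of glutathione supply and turnover had 3 of 11 detected members higher and 1 lower (median 0.50). Chac1, an enzyme that degrades glutathione and is known as a stress response gene, read 3742 on the KO array and 650 on the CON array, 7.51-fold higher in KO. Slc7a11, the cystine importer and an NRF2 and ATF4 target, was detected on the KO array only, with 418 against 226 on the CON array. It was at least 3.41-fold higher on the background-corrected scale, but without the correction the log2 difference was 0.92, under 2-fold. Cbs, of cysteine synthesis, was at least 1.40-fold higher and Ggt5, a gamma-glutamyltransferase, at least 1.37-fold lower. Both were detected on 1 array only, and neither kept 2-fold as a bound.

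In the rest of the thioredoxin and glutaredoxin system, 1 of 12 detected was higher and 0 lower (median 0.14). Glrx, glutaredoxin, which removes glutathione from proteins, read 7540 on the KO array and 1224 on the CON array, 6.99-fold higher in KO. Msrb2, a methionine sulfoxide reductase, was at -0.82, the thioredoxin inhibitor Txnip at 0.76 and the sestrin Sesn1 at -0.69.

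NRF2 targets that the symbol rule leaves out were close to even. Of 17 detected, Slc7a11 was higher by 2-fold, 0 were lower, and the median was 0.16. The next were Cbr3, a carbonyl reductase (0.65), Blvrb, a biliverdin reductase (0.57), and the autophagy receptor Sqstm1 (0.44). Of 10 detected NRF2 partners and regulators, the small MAF protein gene Maff was higher, detected on the KO array only with 392 against 229 on the CON array, and 0 were lower (median -0.03). Maff was at least 3.08-fold higher on the background-corrected scale, but its log2 difference was 0.80 without the correction, so neither list of NRF2 genes then held one past 2-fold. Nfe2l3, a relative of NRF2, was at -0.81, and Btrc, a ubiquitin ligase subunit, at -0.37.

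Few genes that produce superoxide or peroxide were detected, 4 of 14, with 2 higher and 2 lower. Cyba, the membrane subunit of NADPH oxidases, read 568 on the KO array and 220 on the CON array, where it was below detection. It was at least 5.35-fold higher in KO on the background-corrected scale, and the log2 difference was 1.40 without the correction. Xdh, xanthine dehydrogenase, was 2.46-fold higher. Noxo1, an oxidase organiser, was 2.33-fold lower and Nox4, detected on the CON array only, at least 1.30-fold lower. Without background correction Noxo1 was at -0.67 and Nox4 at -0.43, and 0 of the 4 were 2-fold lower. Among 11 other oxidative defence genes detected, 1 was higher and 0 lower (median 0.07). This was the metallothionein Mt2, with 1012 on the KO array and 513 on the CON array (2.57-fold). Selenop, which carries selenium, was at least 1.36-fold lower, Oxr1 was at -0.60, and Ccs, the copper chaperone of Sod1, at -0.28.

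Retinoic acid metabolism and response, the pathway into which Aldh1a1 feeds, had 13 detected genes, with a median of 0.83. Of these 6 passed 2-fold upwards (46.2%) and 1 downwards (7.69%), against 8.35% and 6.52% of all detected genes. As lower bounds 5 were higher, against 6.86% of all detected genes. Without background correction 3 were higher, against 4.15%. Rbp2, a cellular retinol-binding protein, read 1139 on the KO array and 251 on the CON array, 10.9-fold higher in KO (log2 difference 3.45, or 2.22 without background correction). Rdh12, a retinal reductase, read 1280 on the KO array and 515 on the CON array (3.32-fold higher), and Dhrs9, a retinol dehydrogenase, was detected on the KO array only (at least 2.15-fold higher, and at 0.86 without background correction). Stra6, the retinol uptake receptor, read 253 on the KO array and 693 on the CON array, 5.45-fold lower in KO (-2.45, or -1.42 without background correction).

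**Figure D5:**
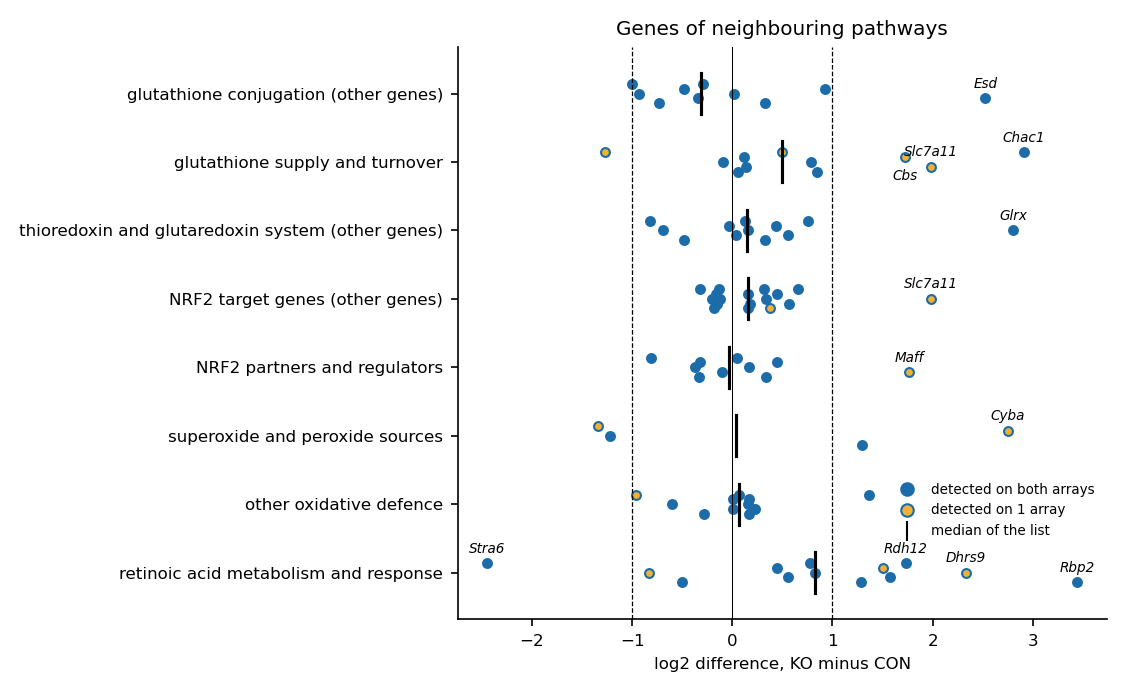
Difference (KO minus CON, log2) of each detected gene in 8 lists of related pathways; orange points were detected on 1 array only, vertical bars are list medians, and dashed lines mark 2-fold. Of the 85 genes 66 lie inside the dashed lines, and Chac1, Glrx, Esd, Cyba and Rbp2 stand to the right.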

How the data were processed

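Total RNA of cultured cells, 1 sample per genotype, was hybridised to Illumina bead arrays, biotin-labelled and read with Cy3-streptavidin, per the labels' protocols. Per the design text the RNA came from 3 mice per genotype, read here as pooled. The submitters' processing notes name GenomeStudio 2011.1. The deposited non-normalized table holds an average signal and a detection p-value per probe and array, per the file headers. The signals were read here as linear and not normalized between arrays. The detection p-values were read as set against negative control beads. The deposited value table holds normalized intensity, its columns sharing 1 distribution to within 0.28 units; how it was normalized is not stated.

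Here intensities were background corrected and quantile normalized with neqc (limma 3.58.1, R 4.3.3, offset 16, negative controls inferred from detection p-values). Of 25697 probes, 23978 had 1 gene symbol, 0 several and 1719 none. A gene was read by its probe of highest mean, and counted at 2-fold when detected (p under 0.01) on at least 1 array. Where 1 array lacked detection, the fold is a bound on the corrected scale, the brighter value over the higher of the dim value and the lowest detected value there (6.37 on the KO array, 6.30 on the CON array). No test was possible. Values are given for every member at least 2-fold different, the brightest detected member of each class, members whose detected probes differ in sign or by more than 1, and up to 4 genes per list, predicted genes passed over. The members and lists were chosen with earlier results of these data known. Alternatives covered background, offset, scaling, detection, probe summary and threshold.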

Additional observations from a re-analysis of the deposited data

How the results depend on the processing

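No test, replicate or pairing exists with 1 array per genotype. No paired analysis was possible because each genotype has a single array, and for the same reason no replicate could be left out. Over 10 alternatives, 512 of 538 member differences moved by less than 0.31, the spread between probes, and 26 moved by more. Of the 2-fold differences 0 changed sign. The detection alternatives leave these values unchanged by construction. Bounds change only genes detected on 1 array, and probe averaging only members with several detected probes. The 512 therefore include many differences that could not move. Of the 10 members at least 2-fold different, 8 stayed so under every alternative that changed their values; the exceptions were Aldh1a1 (-0.94) and Gsto2 (0.82), these being the values from the deposited table. Against 8 higher and 2 lower members, 7 were higher and 1 lower without background correction (4.15% and 2.51% of all detected genes), and likewise with the deposited values (4.17% and 2.54%). At 1.5-fold 18 were higher and 5 lower, against 14.6% and 16.4% of all detected genes, and at 3-fold 7 were higher and 1 lower, against 4.44% and 2.48%. List genes, 15 higher and 4 lower, became 9 higher and 1 lower without background correction, and 2 lower as bounds. The median of all genes stayed between -0.11 and -0.02. Values near background limit what can be said of Gsto2, Aldh1l1, Gstt1, Gstt2, Gstm6 and Gpx3.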
